A study of Mus musculus with 4 samples.

Results

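The genes described here are 32 genes of the unfolded protein response and of ER-associated degradation, chosen by name and looked up by symbol among the 52636 genes of the deposited table. All 32 were found, and all 32 passed the filter for testing (a mean of at least 10 normalized counts), which 16833 genes of the table passed. The study compared retinas of 3-week-old mice carrying the mutation Q344X with retinas of wild-type (WT) mice of the same age, by RNA sequencing of polyadenylated RNA, with 2 libraries per genotype. Patients with Q344X have dominant retinitis pigmentosa, in which rod photoreceptors die first. Construction of the allele, its copy number and the animals' strain, sex and litter are not in the labels. The protocol names 3 Q344X and 2 WT mice and the design text keeps 2 of each after removing poor or outlying samples, so a p-value here reflects library-to-library spread, part of which may be technical.

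Membrane and secreted proteins are made at the endoplasmic reticulum (ER), where chaperones and disulfide isomerases fold them. When unfolded proteins accumulate, the sensors PERK, IRE1 and ATF6 start the unfolded protein response. PERK phosphorylates a translation initiation factor, which slows protein synthesis and favours translation of the transcription factor ATF4. IRE1 splices the Xbp1 messenger RNA into the form that encodes an active transcription factor, and ATF6 is cut in the Golgi to release another. XBP1 and ATF6 raise the genes of chaperones and of ER-associated degradation, the route by which misfolded proteins are moved to the cytosol and given to the proteasome. Rods make large amounts of membrane protein for their outer segments, and this response has been studied in retinas with mutations that cause proteins to misfold in the ER. A table of RNA per gene does not measure PERK or eIF2alpha phosphorylation, ATF6 cleavage or the splice form of Xbp1.

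ATF6 binds, together with the CCAAT-binding factor NF-Y, to the ER stress response element, ERSE, which reads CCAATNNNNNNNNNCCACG. A shorter form, ERSE-II, is ATTGG followed by any base and CCACG. The promoters of 28 of the 32 genes (250 bases before to 50 bases after the RefSeq start, build GRCm38.p6) were searched on both strands for both elements. ERSE was present in 8 of the 28 (28.6%), against 0.119% of all 32851 promoters of the same length, and ERSE-II in 2 of the 28 (7.14%), against 0.0365%. The sites are shown because they mark which of the genes carry the element; capitals are the fixed letters of the element, read in its own orientation, with 10 bases on either side.

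Hspa5 (chr2:34772015-34772053, + strand): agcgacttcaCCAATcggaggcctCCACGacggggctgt
Hsp90b1, far site (chr10:86705628-86705666, - strand): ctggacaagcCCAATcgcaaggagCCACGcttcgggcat
Hsp90b1, near site (chr10:86705523-86705561, + strand): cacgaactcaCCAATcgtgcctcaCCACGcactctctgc
Calr (chr8:84847065-84847103, + strand): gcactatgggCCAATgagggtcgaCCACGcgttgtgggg
Canx (chr11:50325790-50325828, - strand): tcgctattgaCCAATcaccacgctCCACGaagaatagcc
Creld2 (chr15:88819510-88819548, - strand): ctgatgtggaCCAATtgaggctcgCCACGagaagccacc
Dnajc3 (chr14:118937817-118937855, + strand): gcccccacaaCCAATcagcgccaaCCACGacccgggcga
Pdia6 (chr12:17266481-17266519, + strand): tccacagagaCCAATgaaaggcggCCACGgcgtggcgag
Syvn1 (chr19:6046522-6046560, + strand): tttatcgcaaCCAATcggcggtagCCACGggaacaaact
Dnajb11, ERSE-II (chr16:22857842-22857872, + strand): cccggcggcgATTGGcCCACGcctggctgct
Herpud1, ERSE-II (chr8:94386367-94386397, + strand): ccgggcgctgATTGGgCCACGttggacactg

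The C/EBP-ATF element, the site through which ATF4 acts, was searched as TGATGNAA on both strands. It was present in the promoters of 3 of the 28 genes (10.7%), against 3.97% of all promoters, so this short motif is common. The XBP1 element UPRE, searched as TGACGTGG, was present in 0 of the 28 and in 0.676% of all promoters, which says only that these letters are not in these windows.

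Asns (chr6:7693215-7693242, - strand): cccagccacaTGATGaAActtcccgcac
Chac1 (chr2:119351039-119351066, - strand): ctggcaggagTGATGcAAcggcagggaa
Herpud1 (chr8:94386307-94386334, - strand): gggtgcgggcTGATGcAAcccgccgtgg

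Libraries held an estimated 18452679 to 19706573 reads in genes, if the smallest value above 0 in each is 1 read, which a unit check did not accept for 2 of the 4. Of 10 rod markers 2 were lower past the threshold and 0 were higher (limma), with summed levels of 668690 and 744153 in WT and 409214 and 452670 in Q344X. Much of the fall in the sum was Gnat1, at 179576 and 204223 in WT and at 39731 and 37666 in Q344X. Both Q344X libraries were below WT in 6 of the 10, against 31.7% of all tested genes, and above WT in 1, Nr2e3 (0.51). The groups overlapped in 3, among them Sag and Cnga1 (-0.04 each). Of 7 cone markers 4 were lower, with sums of 33378 and 28441 in WT and 17966 and 19388 in Q344X. Of 6 ganglion cell markers 1 was higher, with sums of 12409 and 14262 in WT and 19855 and 23728 in Q344X, and of 6 tested pigment epithelium markers 3 were higher, with 2569 and 2874 against 4057 and 5150. The part of these shifts in the results on the 32 genes was not tested. In bulk retina, fewer cells of a type and less RNA per cell cannot be told apart, and this holds for every value below. Library Q344X replicate 2 stood apart in lens RNA: the summed level of 5 lens markers was 4753 there, against 165963 and 191893 in WT and 171623 in Q344X replicate 1, and calls that are lost without this library are named as such.

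Most of the 32 genes did not pass the test between genotypes. Asns and Selenos rose in Q344X, Pdia6 fell, and 29 did not pass (limma, adjusted p under 0.05 over all 16833 genes). The 3 called genes are 9.38% of the 32, where 14.6% of all tested genes were called, 5.46% higher and 9.1% lower. The difference in share was not tested and rests on few genes. With no filter on low values 0 of the 32 were higher and 0 lower. After correction for gene length and GC content 2 were higher and 6 lower. The median log2 fold change of the 32 was -0.09, against 0.02 over all tested genes. At an unadjusted p under 0.05 there were 9 of the 32, against 34.7% of all tested genes. None of the 3 calls held with either WT library left out, a fit that takes its variance from the Q344X pair alone. Calls fell over the whole table there too. The log2 fold changes without WT replicate 1 and 2 were 0.80 and 0.80 for Asns, 0.90 and 1.15 for Selenos. Those of Pdia6 were -0.71 and -0.71. Scaling moved the split, with 2 higher and 0 lower under 75th percentile scaling and 1 higher and 3 lower under quantile normalization.

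The sizes of the differences were bounded more closely than the calls. The upper end of the 95% interval of the log2 fold change (limma, unadjusted) was under 1, the value of a doubling, in 30 of the 32 genes, against 69.9% of all tested genes. Asns and Selenos were the exceptions. The whole interval lay between -1 and 1 in 24 of the 32, against 40.7% of all tested genes. Variances were moderated along a trend in level, and these shares were not matched for level. Of the 16833 tested genes, 13327 had a mean of at least 50, and most of the 32 genes lay well above that. Both Q344X libraries lay above both WT libraries in 5 genes and below them in 13, and the groups overlapped in 14. Groups without overlap were thus found in 18 of the 32, or 56.2%, against 63.1% of all tested genes, of which 31.4% lay above and 31.7% below. By branch, Q344X was below WT in 6 and above in 0 of 8 ATF6 genes, with a median log2 fold change of -0.38. The 8 were Atf6, Hspa5, Hsp90b1, Calr, Hyou1, Creld2, Herpud1 and Pdia4. Of 6 IRE1-XBP1 genes (Ern1, Xbp1, Dnajb9, Dnajc3, Edem1, Sdf2l1), 4 were below and 0 above (median -0.58). Of 6 PERK-ATF4 genes (Atf4, Eif2ak3 and 4 targets), 0 were below and 1 above (-0.01). Differences between branches were not tested.

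**Figure D1:**
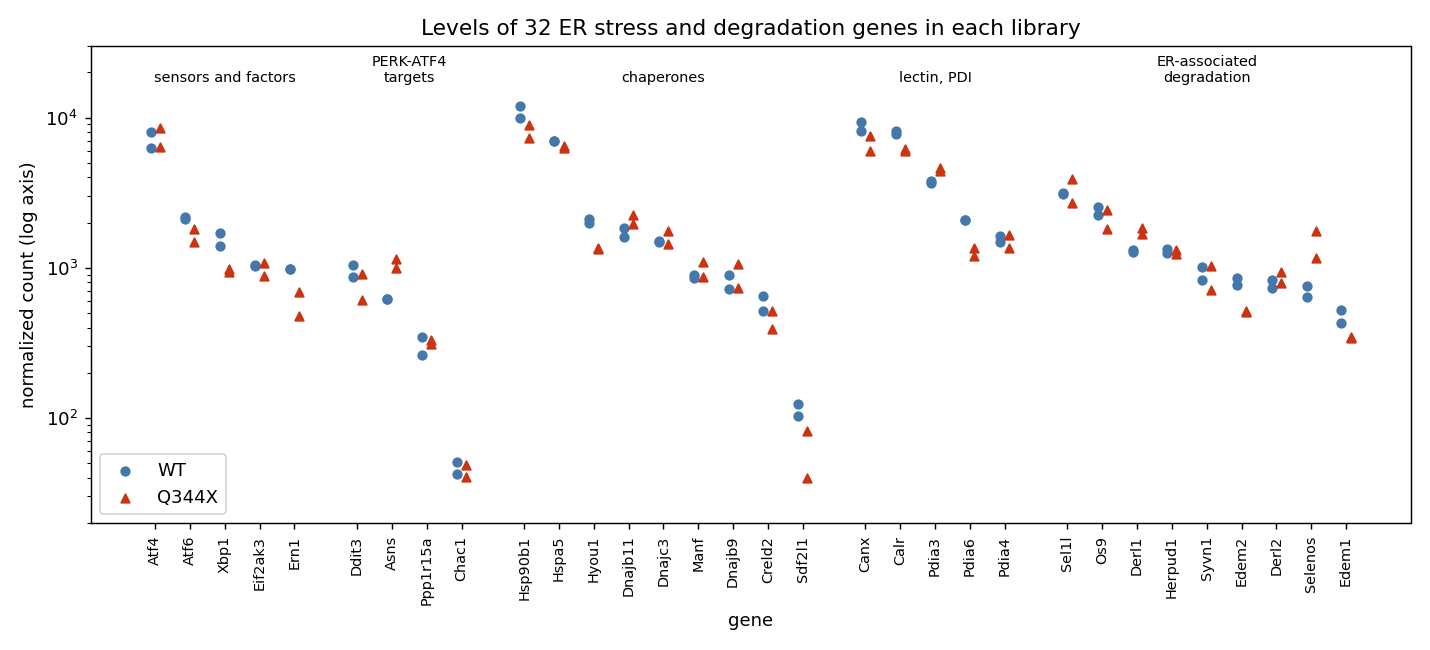
Normalized counts of the 32 genes (log axis) in each of the 4 libraries, by role and, within a role, by mean level in WT; circles are the WT libraries and triangles the Q344X libraries. The Q344X points of Asns and Selenos lie above both WT points, those of Pdia6, Xbp1 and Ern1 lie below, and for Atf4, Herpud1 and Chac1 the ranges of the genotypes overlap.

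The sensors and their transcription factors had 0 of 5 genes past the threshold, against 14.6% of all tested genes, with a median log2 fold change of -0.39. Atf4, encoding the transcription factor of the PERK branch, was the most abundant of the 32 per kilobase of exon in WT. Atf4 was at 6294 and 8075 normalized counts in WT and at 6321 and 8526 in Q344X, and the groups overlapped (log2 fold change 0.04 ± 0.23, SE). Eif2ak3, encoding PERK, was at 1039 and 1028 in WT and 1070 and 886 in Q344X, also overlapping (-0.09 ± 0.18).

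The IRE1 genes lay lower in Q344X without passing the threshold. Xbp1 was at 1404 and 1697 normalized counts in WT and at 937 and 978 in Q344X, a log2 fold change of -0.69 ± 0.18 (SE; 95% interval -1.14 to -0.24; limma adjusted p = 0.0588). Ern1, encoding IRE1, was at 982 in both WT libraries and at 688 and 480 in Q344X (-0.77 ± 0.23, adjusted p = 0.0725 in limma). In both genes each Q344X library was below each WT library. Atf6, encoding the third sensor, was at 2162 and 2113 in WT and at 1803 and 1478 in Q344X, again without overlap (-0.39 ± 0.18, adjusted p = 0.193 in limma). Adjusted p over the alternatives ran from 0.0196 to 0.405 for Xbp1 and from 0.00287 to 0.295 for Ern1. These ranges include fits with 1 library left out, which take their variance from 1 pair. Without Q344X replicate 1 the log2 fold change was -0.66 for Xbp1 and -1.03 for Ern1. Without Q344X replicate 2 the values were -0.72 and -0.51.

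Among the targets of PERK and ATF4, 1 of 4 passed (25%, against 14.6% of all tested genes). Asns encodes asparagine synthetase, a classical ATF4 target that responds to amino acid lack as well as to ER stress (ENSMUSG00000029752, chr6:7675169-7693254, GRCm38). Asns was at 617 and 615 normalized counts in WT and at 1151 and 996 in Q344X. The Q344X libraries lay above both WT libraries, by more than the differences within either genotype (log2 fold change 0.80 ± 0.18, SE; 95% interval 0.36 to 1.24; limma adjusted p = 0.0391). Without Q344X replicate 2 the value was 0.90 (adjusted p = 0.0154), and without WT replicate 1 or 2 it was 0.80 with adjusted p = 0.250 and 0.213. Its C/EBP-ATF site, shown above, lay 16 to 23 bases before the start in the promoter printed here in full, with the element in capitals.

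Asns promoter (chr6:7693160-7693459, - strand): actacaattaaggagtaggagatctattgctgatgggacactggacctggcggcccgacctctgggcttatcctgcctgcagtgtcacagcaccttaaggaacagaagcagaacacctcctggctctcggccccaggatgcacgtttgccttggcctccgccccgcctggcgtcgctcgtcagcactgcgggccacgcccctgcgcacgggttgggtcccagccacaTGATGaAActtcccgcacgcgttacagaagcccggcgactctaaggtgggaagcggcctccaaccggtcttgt

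The groups of the other PERK-ATF4 targets overlapped. Ddit3, encoding CHOP, the factor linked to cell death under prolonged ER stress, was at 874 and 1049 normalized counts in WT and at 610 and 902 in Q344X. The interval of the log2 fold change was -0.98 to 0.24 around -0.37, so its upper end was well short of a doubling, and without Q344X replicate 2 the value was -0.65 (limma adjusted p = 0.0772). Chac1, which encodes a glutathione-degrading enzyme induced downstream of ATF4 and carries the same element as Asns, was at 51.0 and 42.1 in WT and at 40.6 and 48.9 in Q344X (-0.05, 95% interval -0.78 to 0.67). Ppp1r15a, encoding GADD34, the phosphatase subunit that reverses the PERK signal, was at 264 and 345 in WT and at 312 and 329 in Q344X (0.09, -0.45 to 0.62). Asns was thus the single member of the 4 whose groups did not overlap (25%, against 63.1% of all tested genes).

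None of the 9 chaperones and co-chaperones passed the threshold in limma, where 14.6% of all tested genes did. Of the 9, 2 had an unadjusted p under 0.05, against 34.7% of all tested genes. Hspa5 encodes BiP, the ER Hsp70 that holds the sensors inactive and the gene most used as a gauge of the response. Hspa5 was at 6996 and 6950 normalized counts in WT and at 6242 and 6420 in Q344X, a log2 fold change of -0.14 ± 0.17 (SE; 95% interval -0.55 to 0.27). Both Q344X libraries were below both WT libraries, by a small amount. Hsp90b1, encoding the ER Hsp90 (GRP94), was at 11888 and 9935 in WT and at 8947 and 7350 in Q344X (-0.42 ± 0.20, limma adjusted p = 0.195).

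Lower values in Q344X, short of the threshold, were found for 3 less abundant chaperones. Hyou1, encoding an ER nucleotide exchange factor for BiP, was at 1985 and 2116 normalized counts in WT and at 1362 and 1343 in Q344X (-0.60 ± 0.17, SE; limma adjusted p = 0.0638). Sdf2l1, encoding a component of ER chaperone complexes, was at 103 and 123 in WT and at 39.6 and 81.6 in Q344X (-0.97 ± 0.39, adjusted p = 0.138 in limma). The Q344X libraries differed from each other by 1.02 on the log2 scale for Sdf2l1, more than for any other of the 32 genes, and without Q344X replicate 2 its log2 fold change was -1.49 (adjusted p = 0.00809). Creld2, a secreted ER stress-inducible protein gene, was at 519 and 646 in WT and at 389 and 518 in Q344X (-0.37).

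The other co-chaperones lay at or above WT. Dnajb11, encoding a BiP partner of the J-domain family, was at 1608 and 1852 normalized counts in WT and at 1958 and 2239 in Q344X (0.28 ± 0.18, SE; limma adjusted p = 0.324). Dnajb9, a classical XBP1 target, was at 725 and 899 in WT and at 737 and 1067 in Q344X, overlapping (0.13). Dnajc3, an inhibitor of PERK and BiP partner, and Manf, an ER-resident trophic factor, had log2 fold changes of 0.08 and 0.15, and their groups also overlapped.

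Of the lectin chaperones and disulfide isomerases, Pdia6 fell. Pdia6 encodes a protein disulfide isomerase that also attenuates IRE1 signalling (ENSMUSG00000020571, chr12:17266545-17284770, GRCm38). It was at 2085 and 2090 normalized counts in WT and at 1359 and 1195 in Q344X. The Q344X libraries were both below WT, and the log2 fold change was -0.71 ± 0.17 (SE; 95% interval -1.14 to -0.29; limma adjusted p = 0.0472). The call was close to the threshold: adjusted p was 0.0736 without Q344X replicate 2, 0.311 and 0.265 without WT replicate 1 or 2, and 0.0536 under 75th percentile scaling. Pdia6 is the single gene of the 3 called that holds an ERSE, 80 to 98 bases before the start, and its promoter is printed for that reason with the fixed letters of the element in capitals.

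Pdia6 promoter (chr12:17266339-17266638, + strand): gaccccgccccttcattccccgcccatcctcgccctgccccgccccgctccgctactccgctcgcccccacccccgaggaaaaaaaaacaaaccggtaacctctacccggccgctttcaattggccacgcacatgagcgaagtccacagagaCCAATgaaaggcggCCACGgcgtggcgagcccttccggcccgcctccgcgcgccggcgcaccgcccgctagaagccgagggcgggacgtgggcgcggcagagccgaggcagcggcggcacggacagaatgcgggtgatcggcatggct

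The remaining genes of this group did not pass. Calr, encoding calreticulin, the lumenal lectin chaperone, was at 8166 and 7796 normalized counts in WT and at 5976 and 6223 in Q344X (-0.39 ± 0.17, SE; limma adjusted p = 0.163). Canx, encoding its membrane-bound relative calnexin, was at 9369 and 8118 in WT and at 7552 and 6025 in Q344X (-0.37 ± 0.20). Pdia3, encoding the isomerase that works with both lectins, had its higher values in Q344X, 4438 and 4613 against 3809 and 3684 in WT (0.27 ± 0.16, adjusted p = 0.290 in limma). In these 3 genes the groups did not overlap, whereas those of Pdia4, another isomerase, did (-0.07).

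In ER-associated degradation, 1 of 9 genes rose and 8 did not pass, with a median log2 fold change of -0.02. The 11.1% called is near the 14.6% of all tested genes. Selenos encodes selenoprotein S, a membrane protein that ties the p97 ATPase to the Derlin channel (ENSMUSG00000075701, chr7:66079649-66089405, GRCm38). Selenos was at 641 and 761 normalized counts in WT and at 1162 and 1746 in Q344X. Both Q344X libraries were above WT and also lay apart from each other, by 0.59 on the log2 scale (log2 fold change 1.03 ± 0.25, SE; 95% interval 0.41 to 1.64; limma adjusted p = 0.0472). The value was 0.73 (adjusted p = 0.0461) without Q344X replicate 2 and 1.32 (adjusted p = 0.000395) without Q344X replicate 1. Without WT replicate 1 or 2 adjusted p was 0.199 and 0.0760, and the call was also lost under quantile normalization (0.0504), with a minimum mean of 50 (0.0520) and with no filter (0.109).

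The membrane core of the pathway had values near those of WT. Sel1l, the adaptor of the HRD1 ligase, was at 3123 and 3075 normalized counts in WT and at 3926 and 2680 in Q344X, so that 1 Q344X library lay above and the other below WT (0.07 ± 0.23, SE). Syvn1, the HRD1 ligase itself, was at 823 and 1009 in WT and at 713 and 1028 in Q344X (-0.09 ± 0.24). Herpud1, a strongly ER stress-inducible organizer of the HRD1 complex that carries both an ERSE-II and a C/EBP-ATF element, was at 1253 and 1333 in WT and at 1239 and 1313 in Q344X. The Herpud1 groups overlapped and its log2 fold change was -0.02 (95% interval -0.43 to 0.40).

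The Derlins, which form the channel, and the EDEM proteins, which trim mannose from misfolded glycoproteins, had values on opposite sides of 0. Derl1 was at 1307 and 1281 normalized counts in WT and at 1672 and 1829 in Q344X (0.43 ± 0.17, SE; limma adjusted p = 0.132), and Derl2 had 0.14. Edem2 was at 858 and 765 in WT and at 509 and 514 in Q344X (-0.66 ± 0.18, adjusted p = 0.0595 in limma; 0.0501 without Q344X replicate 1, or 0.0486 there with the filter recomputed on the 3 libraries left). Edem1, a classical XBP1 target, was at 525 and 430 in WT and at 346 and 342 in Q344X (-0.47 ± 0.20, adjusted p = 0.155 in limma). Os9, a lectin that delivers glycoproteins to HRD1, had overlapping groups (-0.18).

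**Figure D2:**
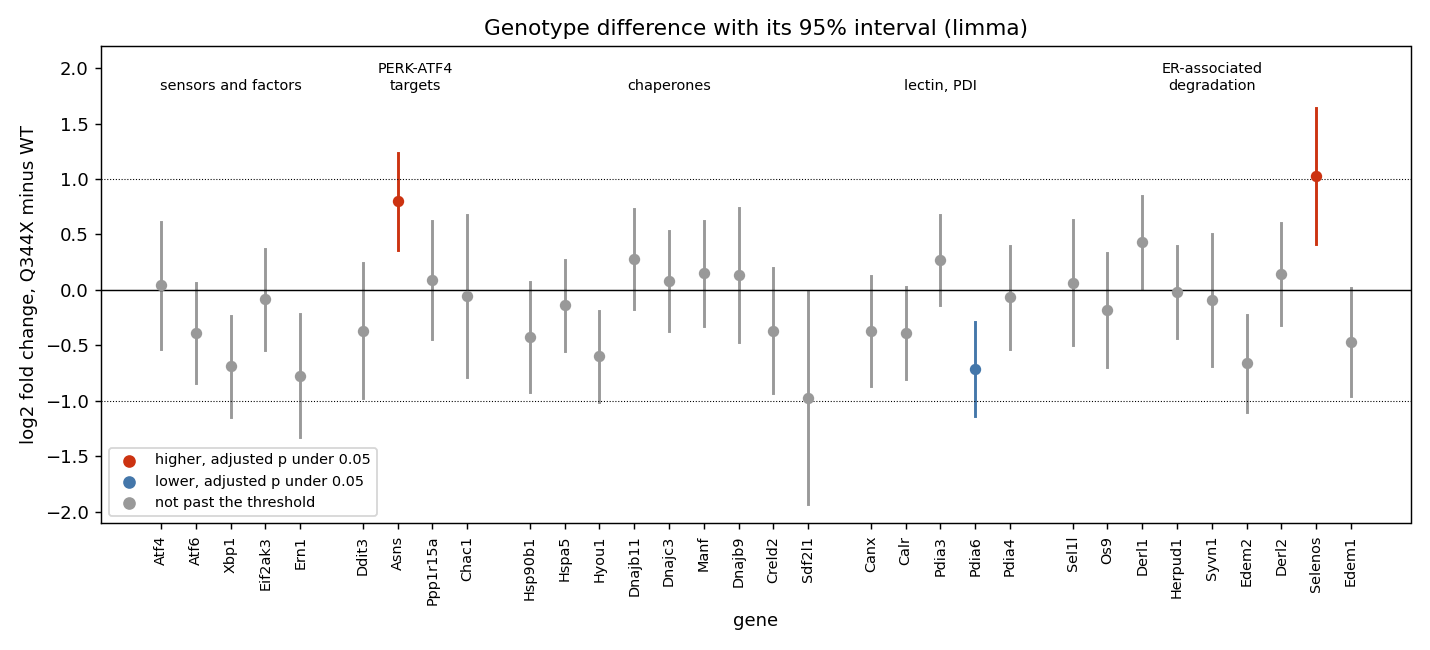
Log2 fold change (Q344X minus WT) of each of the 32 genes with its 95% interval from limma, in the order of the plot of levels; red and blue mark genes higher and lower at an adjusted p under 0.05, and dotted lines mark a log2 change of -1 and 1. Of the 32 intervals, 30 end below 1, and those of Asns and Selenos reach 1.24 and 1.64.

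Genes with and without the ERSE are given side by side, and the difference between them was not tested. Of the 10 genes with an ERSE or ERSE-II, 0 rose and 1 fell past the threshold, both Q344X libraries were below WT in 6 and above in 1, and the median log2 fold change was -0.25. Of the 18 genes with a promoter in the table and neither element, 2 rose and 0 fell, Q344X was below WT in 5 and above in 3, and the median was -0.06. Over all tested genes 5.46% rose and 9.1% fell past the threshold, and the few calls in either group are near these shares. Over all tested genes Q344X was below WT in 31.7% and above in 31.4%, and all 31 tested genes of the table with an ERSE or ERSE-II had a median of -0.02. The 6 of the 10 whose groups separated downward were Hspa5, Hsp90b1, Creld2, Calr, Canx and Pdia6. Nfya, the subunit of NF-Y that contacts CCAAT and is no member of the 32, was at 1032 and 1286 normalized counts in WT and at 514 and 575 in Q344X (-1.08 ± 0.20, SE; limma adjusted p = 0.0254, but 0.0581 without WT replicate 1 and 0.149 without WT replicate 2). The other subunits, Nfyb and Nfyc, had 0.31 and -0.28 and did not pass.

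Differences between libraries of the same genotype followed gene length in these genes. Across the 32 genes, the log2 difference between Q344X replicates 2 and 1 had a Spearman rank correlation of -0.66 with exon length, and the same difference in WT one of -0.34. Across 16806 tested genes with a length these were -0.35 and -0.15, and the genotype difference had -0.20 over the 32 and -0.08 over all; genes of a library share its preparation, so these are descriptions across genes. The shortest genes, Sdf2l1 and Selenos among them, were higher in Q344X replicate 2 than in replicate 1, and the long genes Sel1l and Ern1 were lower. The genotype difference was larger than both differences between replicates in 16 of the 32 genes, against 52.8% of all tested genes. When each library was corrected for gene length and GC content, 2 of the 32 genes were higher and 6 lower. Asns and Selenos remained higher (adjusted p = 0.0220 and 0.0194 in limma) and Pdia6 remained lower (0.0214 in limma). Xbp1, Edem2, Ern1, Hyou1 and Sdf2l1 joined it (0.0196 to 0.0331 in limma). Calls rose over the whole table too, to 1617 higher and 2367 lower of 16833 genes, from 919 and 1531 without the correction.

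**Figure D3:**
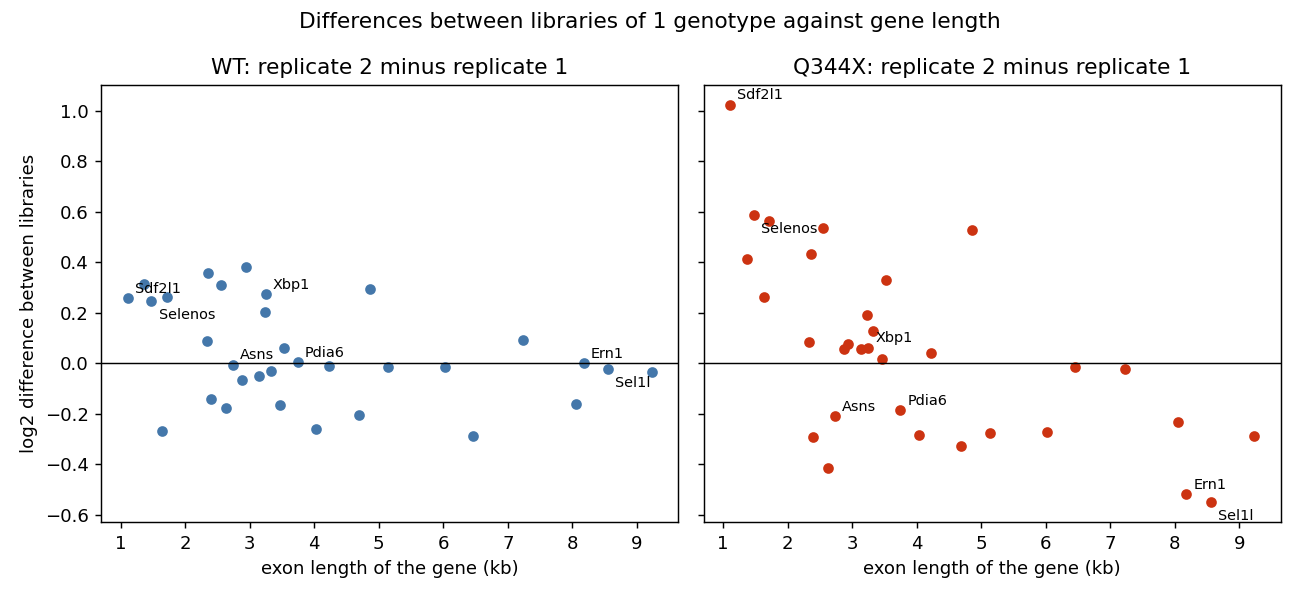
Log2 difference between the 2 libraries of a genotype (replicate 2 minus replicate 1) for each of the 32 genes against the exon length of the gene in kilobases, WT on the left and Q344X on the right. In Q344X the points range from 1.02 for Sdf2l1, the shortest gene, to -0.55 for Sel1l, while the WT points spread less.

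The wider pathway was read from 8 lists holding 134 tested genes. Of these, 3 were higher, 5 lower and 126 did not pass, so 5.97% were called, against 14.6% of all tested genes, and the median log2 fold change was 0.06, against 0.02. Under 75th percentile scaling 4 were higher and 3 lower, and under quantile normalization 1 and 4. Without WT replicate 1 or 2 the counts were 0 higher and 3 lower, and 1 and 3; without Q344X replicate 1 they were 18 and 17.

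The ATF4 targets beyond the 32 lay on both sides of WT. Among the 23 that were tested, 3 were lower, 0 higher and 20 not past the threshold, with a median of -0.30, and the 13% called is near the 14.6% of all tested genes. Both Q344X libraries were below WT in 12 and above in 5, against 31.7% and 31.4% of all tested genes. Groups without overlap were thus 73.9% of the 23, against 63.1% of all tested genes. Atf3, a stress-induced transcription factor downstream of ATF4, was at 192 and 287 normalized counts in WT and at 61.4 and 101 in Q344X (log2 fold change -1.57 ± 0.34, SE; limma adjusted p = 0.0358). Gpt2, a mitochondrial alanine aminotransferase gene, and Vldlr, a lipoprotein receptor gene, fell by 0.88 and 0.70 on the log2 scale, and Slc3a2, the heavy chain of amino acid exchangers, had 0.49 (not past the threshold). Among the 5 with Q344X above WT, chosen for naming after their values were seen, Slc7a5, the partner of Slc3a2 in amino acid exchange, was at 1089 and 1687 in WT and at 2475 and 4218 in Q344X (1.25, adjusted p = 0.0574 in limma). Psph, an enzyme of serine synthesis, had 0.85 (0.0556), Cth, an enzyme of cysteine synthesis, 0.56, and Psat1, another serine synthesis enzyme, 0.36. The 12 with Q344X below WT held, besides Atf3, Gpt2 and Vldlr, Nupr1 (-2.44), Slc7a11 (-1.22, adjusted p = 0.0595 in limma) and Cebpg (-0.67, 0.0512). They also held Mthfd2 (-0.52), Phgdh (-0.49) and Shmt2 (-0.45), and of the 12 only Atf3, Gpt2 and Vldlr passed. Atf3 did not pass without WT replicate 2 (0.0981), nor did Gpt2 and Vldlr with either WT library or Q344X replicate 2 left out (0.0822 and 0.0521 without the latter). The 12 aminoacyl-tRNA synthetase genes, also regulated by ATF4, had 0 past the threshold in limma. An unadjusted p under 0.05 was found in 0 of the 12, against 34.7% of all tested genes. Their log2 fold changes lay between -0.35 and 0.27, among them Aars (0.11), Nars (0.04), Sars (0.08) and Eprs (-0.02).

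Of the translation factors 16.7% were called and of the ATF6 processing genes 10%, against 14.6% of all tested genes. Of 12 genes of eIF2alpha phosphorylation and of its exchange factor, Eif2b2, a subunit of the exchange factor eIF2B, rose from 615 and 660 to 1063 and 1350 normalized counts (0.91 ± 0.20, SE; limma adjusted p = 0.0364), Eif2s2, encoding eIF2beta, rose (0.68 ± 0.17, adjusted p = 0.0495 in limma), 0 fell and 10 did not pass. Neither passed with either WT library left out. Eif2s2 also missed the threshold without Q344X replicate 2 (0.63, adjusted p = 0.0717), with robust variance moderation (0.0502) and with a pseudocount of 0.5 (0.0501), among other alternatives. Of 10 genes of ATF6 processing and its relatives, Nfya fell, 0 rose and 9 did not pass, and Mbtps1, the protease that cuts ATF6, had 0.14.

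Other folding genes included the largest change of the wider lists past the threshold. Pdia5, encoding an isomerase reported to act on ATF6, was at 771 and 878 normalized counts in WT and at 169 and 200 in Q344X, so that the groups were far apart (-2.16 ± 0.20, SE; limma adjusted p = 0.00552). It passed with each library left out in turn, with log2 fold changes between -2.27 and -2.04. Ppib, encoding the ER prolyl isomerase cyclophilin B, rose from 1937 and 1807 to 3039 and 3873 (0.87 ± 0.19, adjusted p = 0.0382 in limma, 0.165 without WT replicate 1 and 0.191 without WT replicate 2), and 24 of the 26 genes did not pass. P4hb, the founding disulfide isomerase, had 0.47 and Ganab, glucosidase II, 0.01.

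No gene of ER translocation, of the other degradation genes or of ER-phagy passed the threshold (0 of 17, 0 of 28 and 0 of 6 in limma). Of all tested genes 14.6% passed it. An unadjusted p under 0.05 was found in 5, 4 and 2 of them, against 34.7% of all tested genes. In translocation 14 of 17 log2 fold changes were positive and the median was 0.46, the highest of the 8 lists, with Ssr3, a subunit of the translocon-associated complex, at 0.58, Spcs2, of the signal peptidase, at 0.46 and Sec62 at 0.08. The median difference between Q344X replicates 2 and 1 in this list was 0.19. In degradation the median was 0.16, with Ube2j1, a conjugating enzyme of the HRD1 route, at 0.63 (adjusted p = 0.0559 in limma) and Vcp, encoding p97, at 0.20. The ER-phagy receptor genes Rtn3 and Calcoco1 had 0.09 and -0.56.

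**Figure D4:**
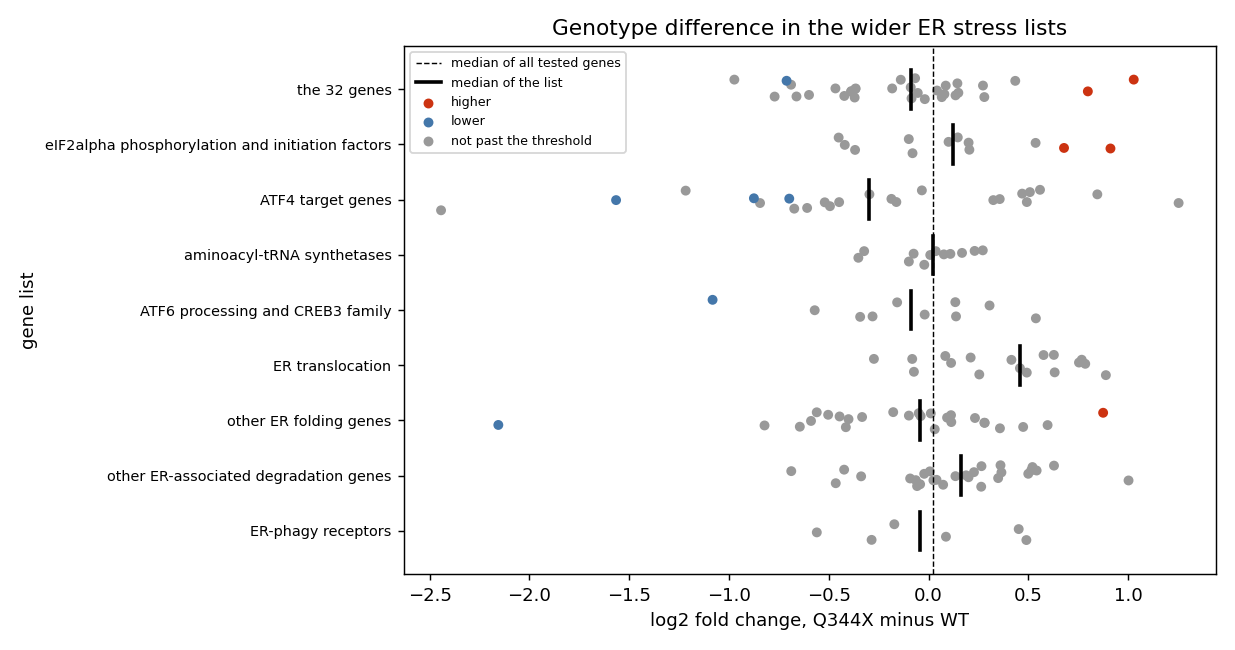
Log2 fold change (Q344X minus WT) of every tested gene of the 32 and of the 8 wider lists; red and blue points passed the threshold, bars are list medians and the dashed line is the median of all tested genes, 0.02. List medians run from -0.30 for the ATF4 targets to 0.46 for ER translocation.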

How the data were processed

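The authors' deposited signal is a normalized count per Ensembl gene and library: each gene count divided by 1 factor for its library. The submitters' processing notes list STAR, featureCounts, FastQC, DESeq2 1.16.1, Trim Galore 0.4.4 and build mm10, without roles. Annotation and strand setting: not given in the sources used here. Some members share exon bases with expressed neighbours on the other strand, where reads may be divided: Syvn1 (Mrpl49, 91 bases), Manf (Dcaf1, 146), Derl2 (Mis12, 231) and Ddit3 (Mars, 68). Every value was within 0.1 of a whole multiple of its column's smallest value above 0, but for 2 columns the reads did not pass a unit check, so count models were left out.

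Symbols were matched by Ensembl identifier for 52403 of 52636 genes, and positions and exon lengths are those of GENCODE M21 (GRCm38). In R 4.3.3 with limma 3.58.1, log2(normalized count + 1) of genes with a mean of at least 10 over the 4 libraries was modelled on genotype, with variances moderated along a trend in mean level (residual degrees of freedom 2, prior 3.90). P-values are two-sided and Benjamini-Hochberg adjusted over 16833 genes, with a threshold of 0.05. Fold changes on this scale understate those of low genes. A permutation test of 2 against 2 libraries cannot go below 0.333. The fit was checked on simulated data. The 32 genes and all lists were chosen with earlier results of these data known. In each wider list up to 4 genes fall under a naming rule: called genes with the largest change first, then the most abundant. The Asns promoter, the short element sites and the NF-Y subunits Nfyb and Nfyc were added after values were seen. Leaving out a library kept the genes tested as they were; a second version, with the filter recomputed on the 3 libraries left, was chosen after both sets of counts had been seen and is given in the closing section as an added alternative. The planned search of protein ends was not made. Some genes that the rules would name, among them 1 rod marker, are not reported here.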

Additional observations from a re-analysis of the deposited data

How the results depend on the processing

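No paired analysis was possible because the labels give no replicate numbers. No tested gene named here changed sign with a call. Pseudocounts of 0.5 and 5 and robust variance moderation left the calls of all 32 genes as they were. Among the 32 genes, 1 was higher and 3 lower under quantile normalization, 0 lower under 75th percentile scaling, 1 higher and 0 lower with a minimum mean of 50, 0 higher and 0 lower with no filter on low values, and 6 lower with the length and GC correction. Their median log2 fold change was -0.0586 under 75th percentile scaling, -0.14 under quantile normalization and -0.15 with the length and GC correction. Leaving out 1 library in turn gave 0 to 2 higher and 0 to 3 lower genes and medians of -0.17 to -0.12. In the wider lists 1 was higher under quantile normalization, 3 were lower under 75th percentile scaling, 0 were higher and 1 lower with no filter, 10 higher and 13 lower with the length and GC correction, and 0 to 18 higher and 3 to 17 lower with a library left out. Over all genes the main counts were 919 higher and 1531 lower; no filter gave 153 and 383, the length and GC correction 1617 and 2367, and leaving out a library 388 to 2353 and 666 to 2973. An added alternative, chosen after both sets of counts were seen, recomputed the filter on the 3 libraries left: it gave 555 to 2388 higher and 904 to 3045 lower genes of all (575 higher without WT replicate 2), 0 to 2 and 0 to 4 among the 32, with the same medians, and 0 to 18 and 3 to 17 in the wider lists (8 lower without Q344X replicate 2). The call it added among the 32 was Edem2 without Q344X replicate 1, and in the wider lists Nfya without WT replicate 1 (0.0326) kept its call. No filter tests more genes and leaving out a library leaves 3, with the variance taken from 1 pair; the cause of the other shifts was not tested. The smallest absolute log2 fold change called among the 32 was that of Pdia6.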

Other observations

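The ERSE also marked tested genes outside the lists above. Of 31 tested genes with an ERSE or ERSE-II in the promoter window, 21 are not among the 32. Of these 21, 1 was higher and 2 were lower past the threshold (limma), with a median log2 fold change of 0.16. Over all tested genes 5.46% were higher and 9.1% lower, so the calls among the 21 were near the share of the table. Alg12, which encodes a mannosyltransferase of N-glycan assembly in the ER (chr15:88805244-88819318, GRCm38), fell from 352 and 314 normalized counts in the WT libraries to 189 and 176 in the Q344X libraries, a log2 fold change of -0.86 ± 0.20 (SE; limma adjusted p = 0.0411). Alg12 and Creld2 start back to back on opposite strands, and a single ERSE between them (chr15:88819520-88819538) lies in the promoter windows of both; Creld2 had -0.37 and did not pass. Nucb1, which encodes a calcium-binding protein of the Golgi, was at 903 and 1119 in WT and at 1400 and 1716 in Q344X (0.62 ± 0.21, adjusted p = 0.0936 in limma). The other called genes with the element were the gene models Gm20560, which was lower, and Gm6566, which was higher, both at low levels. Gm20560 was at 42.6 and 34.1 in WT and at 0 in both Q344X libraries. Gm6566 was at 6.24 and 3.01 in WT and at 46.5 and 41.3 in Q344X. These genes were chosen after their values were seen.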
